A study of Homo sapiens with 2 samples.

Results

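The zinc finger genes of cytogenetic bands 19p13.2 and 19p12 were compared between PC3 cells and the cabazitaxel (CBZ)-resistant subline PC3CR. The list held 47 gene symbols, 20 for the 19p13.2 cluster and 27 for the 19p12 cluster, a choice made by symbol and band. Probe sets with a single gene symbol were found for 39 of the 47, 16 in 19p13.2 and 23 in 19p12, among 19775 genes measured in all. ZNF69, ZNF433, ZNF20 and ZNF799 of 19p13.2 and ZNF737, ZNF714, ZNF730 and ZNF726 of 19p12 had no such probe set and were not analysed here. PC3 is a human prostate cancer cell line, and PC3CR was derived from it by 18 months of passage in medium with CBZ, a taxane that stabilises microtubules, followed by 3 months of drug-free culture before profiling. Both lines were kept in the same serum-containing medium, and each was profiled on 1 array. PC3CR is a single subline, and neither the labels nor the methods say whether it is a clone. Its title names the resistant subline, while its cell line label gives the parental name, and the title was followed here.

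Zinc finger proteins of this kind bind DNA through a row of C2H2 fingers, each of which holds a zinc ion between a pair of cysteines and a pair of histidines. Many of them carry a KRAB domain at the other end, which recruits the corepressor TRIM28 and, through it, the histone methyltransferase SETDB1 and heterochromatin proteins. The genes arose by repeated tandem duplication in primates and other mammals, and several are known to silence transposable elements. The tandem copies resemble each other closely, so a probe set designed for one of them can bind RNA of another.

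Values are log2 signals that the authors made with the robust multichip average (RMA), and a difference is PC3CR minus PC3, so that a value of 1 means 2-fold, which the methods used as their limit. For a gene with several probe sets, the one brightest on average was used. A gene was called dim where the brighter of its arrays lay below the median of all genes on that array, which was 5.93 for PC3 and 6.05 for PC3CR. Since each line was profiled once, differences carry no replicate error and no test, and they describe these arrays only. All 5 epithelial markers, KRT8, KRT18, KRT19, EPCAM and CDH1, were above the dim limit, with differences of 0.07, 0.67, -3.28, -2.49 and -0.67. Of 3 prostate markers, KLK2 was dim, at 4.23 in PC3 and 4.26 in PC3CR, whereas KLK3 (8.04 and 8.08) and TMPRSS2 (6.23 and 5.78) were not. Both blood markers were dim, PTPRC at 3.03 and 2.95 and CD3E at 5.74 and 5.46. Of 2 endothelial markers, CDH5 was dim, at 3.24 and 3.28, and PECAM1 was not, at 6.41 and 5.81. Of 3 fibroblast markers, COL1A1 stood at 8.69 in PC3 and 6.56 in PC3CR, DCN at 6.09 and 5.54, and LUM, which was dim, at 2.24 and 3.14. The part of these differences in those of the zinc finger genes was not tested.

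The zinc finger genes as a whole lay on both sides of 0, and a few members stood far from the rest. Past 2-fold were 5 of the 39 members, 4 upward in PC3CR and 1 downward, and the other 34 lay inside that limit. Over all genes the share past 2-fold was 9.84% upward and 6.72% downward. The higher members were ZNF738, ZNF709, ZNF431 and ZNF493, and the lower one was ZNF91. The median difference over members was -0.02, beside -0.04 over all genes, and the distance between the quartiles was 0.40 for members and 0.68 for all genes. In 23 of the 39 members the difference was smaller than 0.25 in either direction, in 6 it lay between 0.25 and 0.5, and in 5 between 0.5 and 1. In such bulk cell samples, fewer cells that express a gene and less RNA per cell cannot be told apart.

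Most members were dim. This was so for 30 of 39 members, or 76.9%, and for 46.2% of all genes. The 30 dim members had a median of 0.00, and ZNF709, ZNF431 and ZNF493 passed 2-fold upward and none downward, beside 3.17% upward and 1.98% downward over all dim genes. The 9 members that were not dim had a median of -0.13, with ZNF738 past 2-fold upward and ZNF91 downward. ZNF738 was below the median in PC3 (4.78), and ZNF91 was below it in PC3CR (5.89). Each was thus kept only through the array on which it was higher. Over all genes that were not dim, 15.6% passed 2-fold upward and 10.8% downward. The distance between the quartiles was 0.38 over the dim members and 0.39 over all dim genes. Without dim genes it was 0.58 over members and 1.09 over all genes. ZNF709 missed the limit narrowly, since its brighter value, 6.01 in PC3CR, lay under the PC3CR median of 6.05.

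**Figure D1:**
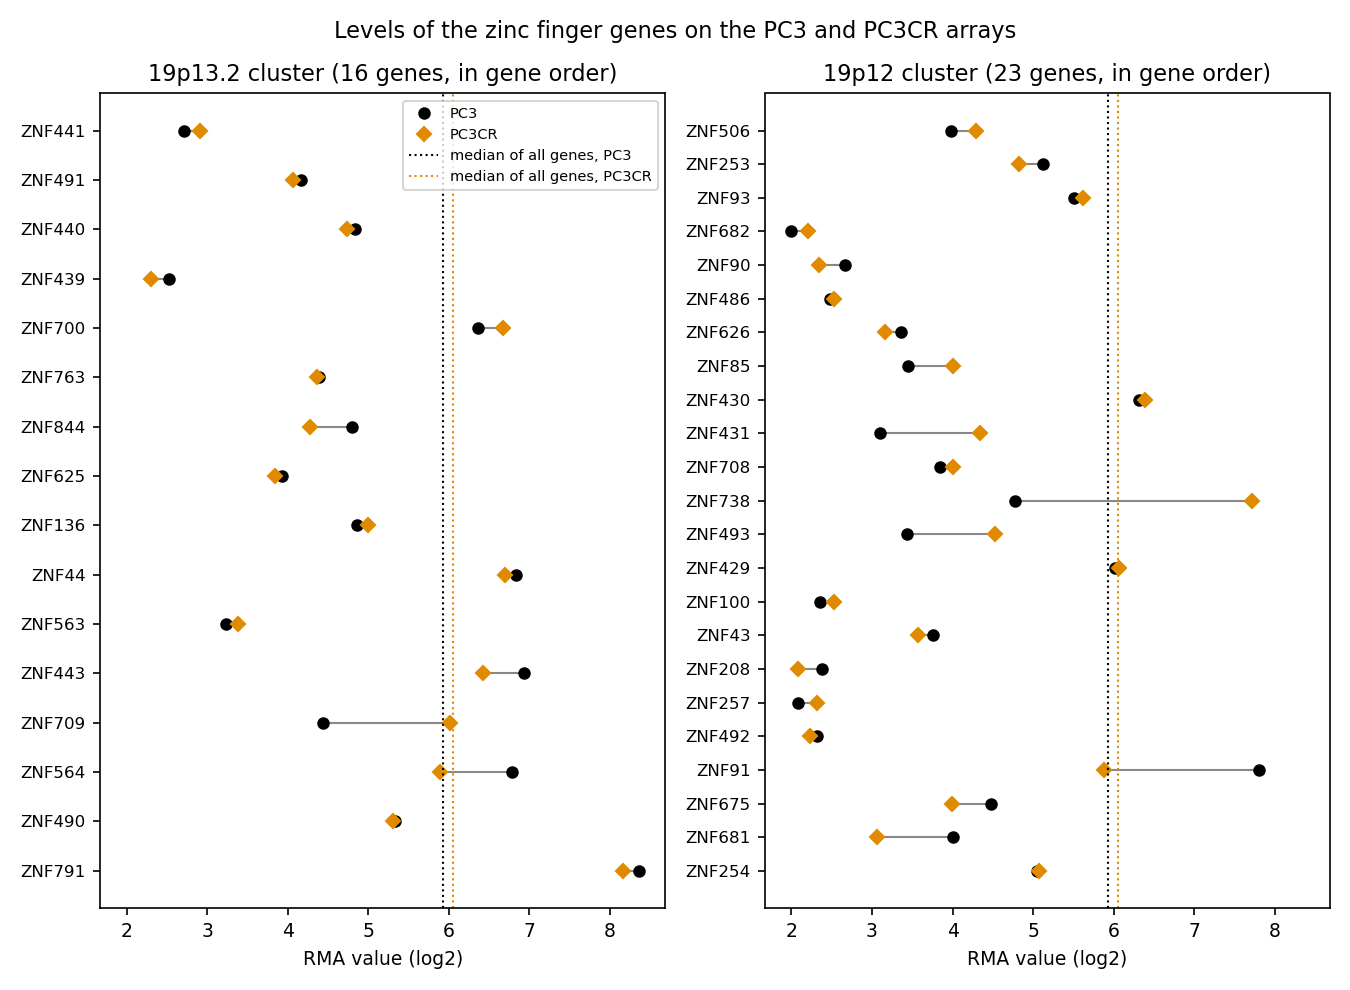
RMA values (log2, horizontal axis) of the 16 measured genes of 19p13.2 and the 23 of 19p12, in chromosome order, on the PC3 array (black circles) and the PC3CR array (orange diamonds), 1 array each. Dotted lines mark the medians of all genes, 5.93 and 6.05. Most pairs overlap or lie close together to the left of the lines, and ZNF738, ZNF91 and ZNF709 have the longest connecting lines.

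The 19p13.2 cluster lay slightly below 0 and the 19p12 cluster slightly above it. In 19p13.2, 5 of 16 members were higher in PC3CR and 11 were lower, with a median difference of -0.09, which was 0.01 when differences were centred on a loess curve. In 19p12, 14 of 23 were higher and 9 were lower, with a median of 0.05. For comparison, 45.2% of all genes were higher. The 19p13.2 median was thus 0.14 below the 19p12 median on the log2 scale. Without dim genes the medians were -0.20 over 5 genes of 19p13.2 and 0.06 over 4 genes of 19p12, a distance of -0.26, while all genes that were not dim had a median of 0.09. ZNF738 and ZNF91 were among these 4 genes and ZNF564 among the 5, each above the median on 1 array only. With both arrays at or above the median, the medians were -0.16 over 4 genes and 0.06 over 2. Over dim genes alone the medians were -0.02 over 11 genes and 0.05 over 19 genes, a distance of -0.08. The distance kept its sign under each alternative that was run and ranged from -0.31 to -0.06. Median centring was among these and cannot change it, since it moves both medians equally. With 1 array per line it could not be tested. The distance between the quartiles was 0.35 over the genes of 19p13.2 and 0.47 over those of 19p12.

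In the 19p13.2 cluster, ZNF709 was the only member past 2-fold with the probe set used. It had values of 4.44 (PC3) and 6.01 (PC3CR), differing by 1.57 or 2.98-fold. Its probe sets did not agree. Of 5, 2 were higher and 3 were lower in PC3CR, with differences from -1.21 to 1.57, and as the mean of these probe sets ZNF709 differed by -0.01. The passing of 2-fold by ZNF709 thus rests on 1 probe set, and another of the same gene was more than 2-fold lower.

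ZNF564 had the most negative difference in 19p13.2. It had values of 6.79 (PC3) and 5.89 (PC3CR), differing by -0.90, on its single probe set. This value was within 2-fold as deposited and just past it after loess centring (-1.003) or quantile normalization (-1.02). ZNF844 and ZNF443 followed, at 4.79 and 4.28 for ZNF844, and at 6.94 and 6.43 for ZNF443. Both differed by -0.51, and for each of them another probe set was slightly higher in PC3CR, by 0.03 and 0.04. ZNF709 and ZNF564 are consecutive measured members, so the highest and the lowest difference of the cluster lay side by side.

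The remaining members of 19p13.2 lay between -0.23 and 0.31. ZNF700 was at 6.36 in PC3 and 6.67 in PC3CR, ZNF791 at 8.37 and 8.17, and ZNF44 at 6.83 and 6.70, and these were not dim. All 3 probe sets of ZNF791 were lower in PC3CR, by between 0.04 and 0.20, and 4 of 5 of ZNF44 were lower, with a range from -0.50 to 0.66. ZNF791 thus had the same direction on each of its probe sets, at a size far below 2-fold. The dim members showed smaller or similar differences. ZNF441, at 2.72 and 2.91, and ZNF439, at 2.53 and 2.30, were near the bottom of the scale on both arrays. ZNF136, whose KRAB domain represses reporter genes, was at 4.86 and 5.00, and ZNF563 at 3.23 and 3.38. ZNF440, ZNF491, ZNF625, ZNF490 and ZNF763 differed by -0.09, -0.09, -0.09, -0.02 and -0.02. None of these last 9 genes reached 0.25 in either direction.

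In the 19p12 cluster the members past 2-fold sat in separate stretches, the higher ones together in the middle and the lower one towards the centromere. ZNF738 had values of 4.78 (PC3) and 7.72 (PC3CR), differing by 2.95 or 7.71-fold. Its second probe set differed by 0.17, and the mean of both was 1.56, which was still past 2-fold. ZNF431, whose mouse counterpart represses the Hedgehog receptor gene Ptch1, had values of 3.10 (PC3) and 4.35 (PC3CR), differing by 1.25 or 2.38-fold. Its 3 probe sets agreed in direction and size, with differences from 1.21 to 1.47. ZNF493 had values of 3.44 (PC3) and 4.52 (PC3CR), differing by 1.09 or 2.13-fold, with all 4 probe sets higher, by between 0.06 and 1.09, and a mean of 0.51. Among members past 2-fold, ZNF431 thus had the narrowest range of probe sets, but both its values and those of ZNF493 were dim.

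ZNF431, ZNF738 and ZNF493 belonged to a longer stretch. The 7 consecutive measured members from ZNF430 to ZNF100 (ZNF430, ZNF431, ZNF708, ZNF738, ZNF493, ZNF429 and ZNF100) were higher in PC3CR on each of their 14 probe sets. This stretch was picked out after its values had been seen. ZNF430 and ZNF429, which were not dim, differed by 0.07 and 0.05. The dim members ZNF708 and ZNF100 differed by 0.16 and 0.17. The other 4 members of the stretch were therefore close to 0. Genes that are not zinc finger genes and lie between them were lower, with RPL7AP10 at -0.67, LINC00664 at -0.38 and LOC101929007 at -0.51. LINC00664 (3.10 in PC3 and 2.72 in PC3CR) and LOC101929007 (3.87 and 3.36) were dim, and RPL7AP10 was not. Over both clusters, 40 of 85 probe sets were higher, 43 lower and 2 equal, and in 19p13.2 the longest stretch with all probe sets on one side of 0 was ZNF564, ZNF490 and ZNF791, 3 genes lower in PC3CR.

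ZNF91, which silences SVA retrotransposons, had the most negative difference of all members. It had values of 7.81 (PC3) and 5.89 (PC3CR), differing by -1.92, or 3.80-fold lower. It had 7 probe sets, of which 5 were lower and 2 higher in PC3CR. Only the one with the highest signal was past 2-fold, the others lay between -0.54 and 0.48, and the mean of all 7 was -0.34. The next measured members beyond ZNF91 were also lower. ZNF681 had values of 4.001 (PC3) and 3.07 (PC3CR), differing by -0.93, but its second probe set differed by 0.23. ZNF675, which encodes an inhibitor of TRAF6 signalling, had values of 4.48 (PC3) and 3.999 (PC3CR), differing by -0.48. ZNF254, the last member, was at 5.06 and 5.08. ZNF254 thus ended the run of lower values.

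The upstream sequences of these genes are printed because members that differed in opposite directions had closely similar ones. RefSeq promoters (GRCh38.p14) were found for 43 of the 47 listed genes, 19 in 19p13.2 and 24 in 19p12, and the 250 bases before the annotated start were used. Global alignment of every pair gave a median identity of 77.2% within 19p12 and 50.4% within 19p13.2, beside 49.4% between members of different clusters. The most similar pair was ZNF431 and ZNF714, at 92.0%. ZNF431, which was 2.38-fold higher in PC3CR, and ZNF91, which was 3.80-fold lower, were 84.3% identical, with 214 identical positions, 32 mismatches and 4 unpaired bases in each. In the following pair, 5′ to 3′, capitals mark bases that mismatch or have no partner. The ZNF431 window is chr19:21141790-21142039 on the plus strand, and that of ZNF91 is chr19:23395472-23395721 on the minus strand.
ZNF431: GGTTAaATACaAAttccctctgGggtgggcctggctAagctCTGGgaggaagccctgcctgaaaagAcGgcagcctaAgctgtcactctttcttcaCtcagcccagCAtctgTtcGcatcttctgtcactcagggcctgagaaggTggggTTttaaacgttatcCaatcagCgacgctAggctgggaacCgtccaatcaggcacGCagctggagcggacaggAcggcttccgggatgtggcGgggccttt
ZNF91: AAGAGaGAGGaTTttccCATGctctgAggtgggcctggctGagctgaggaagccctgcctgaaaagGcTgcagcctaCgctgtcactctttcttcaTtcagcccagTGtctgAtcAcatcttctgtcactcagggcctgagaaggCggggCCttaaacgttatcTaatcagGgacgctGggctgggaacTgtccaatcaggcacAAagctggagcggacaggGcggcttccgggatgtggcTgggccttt
In each sequence 21 of the 36 differing bases lay in the first 100 bases, farthest from the start site, and 15 in the last 150.

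The first members of 19p12 and the rest of the cluster stayed within 2-fold. ZNF85, a repressor expressed in testis, had values of 3.45 (PC3) and 4.004 (PC3CR), differing by 0.55, with its other probe set at -0.09. ZNF93, which silences LINE-1 elements, was at 5.51 and 5.62 with the probe set used. Another of its 4 probe sets, with lower signal, had values of 2.28 (PC3) and 3.58 (PC3CR), differing by 1.31. ZNF93 was therefore past 2-fold on 1 probe set of 4 and near 0 on the one that represented it. ZNF506 was at 3.98 and 4.30, ZNF253 at 5.13 and 4.82, and ZNF90 at 2.66 and 2.34. The differences of ZNF682, ZNF486, ZNF626, ZNF43, ZNF208, ZNF257 and ZNF492 were 0.22, 0.05, -0.20, -0.18, -0.29, 0.23 and -0.08, and all 7 lay below the lower quartiles of all genes, 4.22 in PC3 and 4.10 in PC3CR.

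**Figure D2:**
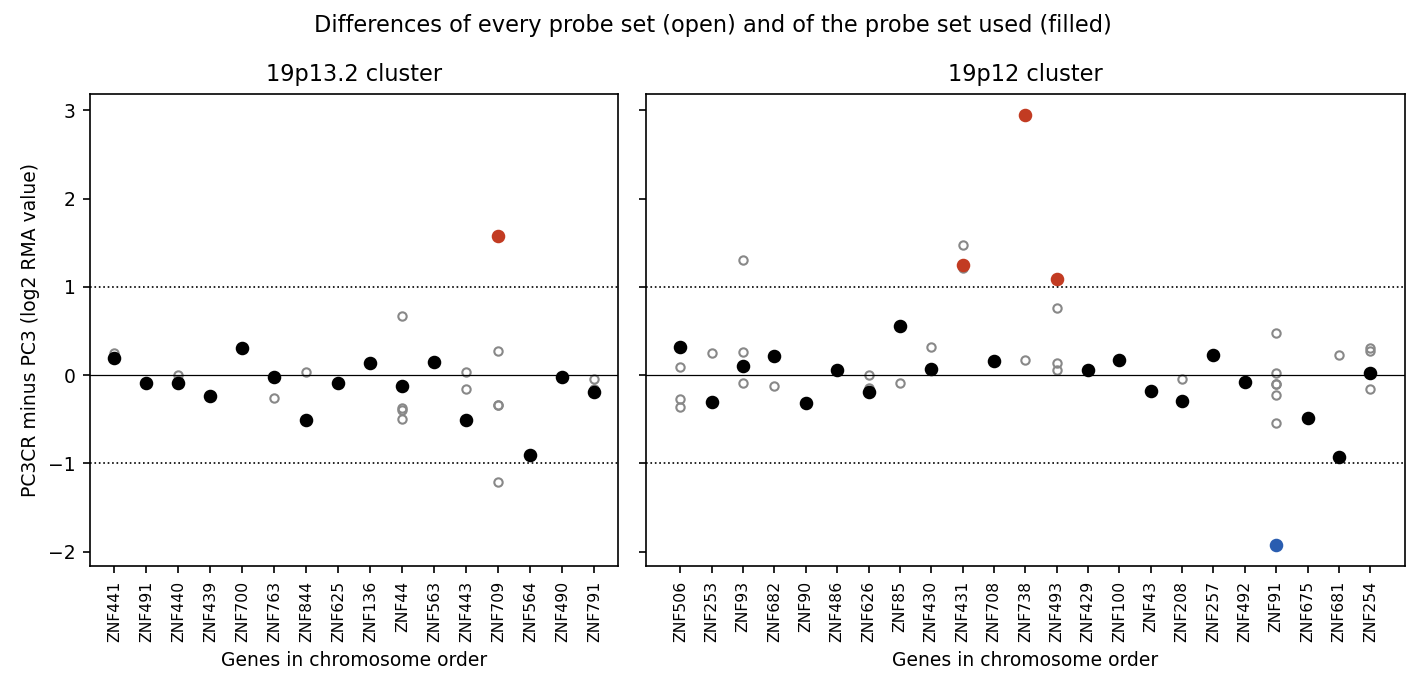
PC3CR minus PC3 in log2 RMA value (vertical axis) for each member in chromosome order. Open circles are all probe sets of a gene and filled circles the probe set used, red where at least 2-fold higher, blue where at least 2-fold lower and black otherwise. Dotted lines mark 2-fold. The red points of 19p12 lie close together, and the open circles of ZNF709, ZNF91 and ZNF93 lie far from the filled ones.

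Among members, probe sets that can bind several transcripts showed no difference past 2-fold. In Affymetrix names, the endings _s_at and _x_at mark probe sets whose probes may match more than 1 transcript. They represented 17 of the 39 members, 6 in 19p13.2 and 11 in 19p12. None of these 17 was past 2-fold, and they ranged from -0.48 to 0.16. Of the 22 members with other endings, 5 were past 2-fold, or 22.7%. Over all genes the shares past 2-fold were 17.5% with these endings and 16.2% with other endings. Of the 17 members, 15 were dim, and of the 22, 15 were dim. The part of shared binding in these values was not tested. When _s_at and _x_at probe sets were left out, 13 genes of 19p13.2 and 16 of 19p12 remained, and the medians were -0.09 and 0.22.

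Of the members with more than 1 probe set, 8 in 19p13.2 and 14 in 19p12, all probe sets had the same sign in 3 and 5. These were ZNF441, ZNF763 and ZNF791 in 19p13.2 and ZNF430, ZNF431, ZNF738, ZNF493 and ZNF208 in 19p12. The 3 higher members of 19p12 past 2-fold were thus among the genes whose probe sets had one sign, whereas ZNF709 and ZNF91 were not.

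Among motifs searched in the same upstream windows, CCCGCCC on either strand, a form of the GC box, was the one that most members held. It was found in 16 of 19 windows of 19p13.2 (84.2%) and 13 of 24 of 19p12 (54.2%), beside 40.3% of 559 ZNF genes and 31.5% of 35116 promoters. The windows of ZNF490 and ZNF791 overlap on opposite strands, and their copies of CCCGCCC are the same site. CCCGCCC neither contains nor lies within any other motif searched. ZNF493, higher in PC3CR, and ZNF564, lower in PC3CR, each held 1 copy, shown in capitals. Their windows are chr19:21396883-21397132 on the plus strand and chr19:12551483-12551732 on the minus strand, and they were 57.4% identical.
ZNF493: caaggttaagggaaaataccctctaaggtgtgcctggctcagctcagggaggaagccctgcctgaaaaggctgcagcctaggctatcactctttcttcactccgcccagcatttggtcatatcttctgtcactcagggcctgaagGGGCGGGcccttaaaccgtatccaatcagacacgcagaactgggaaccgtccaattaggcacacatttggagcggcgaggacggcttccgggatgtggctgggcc
ZNF564: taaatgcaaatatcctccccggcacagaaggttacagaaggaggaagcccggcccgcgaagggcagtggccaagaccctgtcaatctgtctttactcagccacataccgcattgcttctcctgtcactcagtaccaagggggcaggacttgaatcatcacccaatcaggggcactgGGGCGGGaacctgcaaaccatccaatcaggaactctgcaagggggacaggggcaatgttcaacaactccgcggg
Members with CCCGCCC were thus found on both sides of 0, and ZNF431, ZNF91, ZNF709 and ZNF681 did not hold it in this window. The windows of ZNF91, ZNF709 and ZNF681 did hold the shorter GC box form GGGCGG, which was not among the motifs searched.

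TATAAA was found in 3 of 24 windows of 19p12 (12.5%), those of ZNF429, ZNF675 and ZNF708, and in none of 19 of 19p13.2. Its share was 3.94% over all ZNF genes and 10.7% over all promoters. CCGGAAGT, AAGATGGC, TGACGTCA, CACGTG, TCTCGCGA and ACTACAATT were in none of the 43 windows on either strand, beside 3.42%, 1.36%, 1.65%, 6.34%, 1.03% and 0.319% of all promoters. Over all ZNF genes, in the same order, the shares were 10.7%, 2.15%, 2.68%, 4.29%, 0.894% and 1.61%. These letters were not in these windows, which says nothing of the factors that bind such motifs.

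The median count of CpG dinucleotides was lower in these windows than over all ZNF genes. It was 12 in 19p13.2 (range 7 to 20) and 8 in 19p12 (3 to 13), beside 17 over all ZNF genes and 11 over all promoters. The highest count, 20, was that of ZNF709 and the lowest, 3, that of ZNF708, and both windows are printed with CG in capitals. They are chr19:12484817-12485066 and chr19:21329411-21329660, both on the minus strand.
ZNF709: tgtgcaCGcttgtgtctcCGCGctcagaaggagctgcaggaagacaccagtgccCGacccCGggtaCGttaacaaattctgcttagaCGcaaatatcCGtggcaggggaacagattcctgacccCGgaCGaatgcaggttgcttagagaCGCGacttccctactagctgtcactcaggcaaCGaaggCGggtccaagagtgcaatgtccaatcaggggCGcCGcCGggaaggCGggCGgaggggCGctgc
ZNF708: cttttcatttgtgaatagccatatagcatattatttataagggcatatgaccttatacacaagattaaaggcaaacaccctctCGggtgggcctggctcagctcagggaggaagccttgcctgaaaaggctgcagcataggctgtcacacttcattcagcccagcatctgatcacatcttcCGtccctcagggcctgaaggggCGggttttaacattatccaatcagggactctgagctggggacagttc
Across the 35 measured members with a promoter, CpG count and difference had a Spearman correlation of 0.16 and a Pearson correlation of 0.28. With the size of the difference regardless of sign they were -0.04 and 0.02. ZNF738, which had the largest difference, is not among these genes, since no promoter was matched to it. Genes are not independent replicates, and these genes share ancestry and arrays.

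The neighbours of both clusters had lower medians than the members when dim genes were counted, and without dim genes this did not hold on the telomeric side of 19p13.2. The 10 measured genes next to the 19p13.2 cluster on the centromeric side had a median of -0.99, and 5 passed 2-fold downward and none upward. They included TNPO2, a nuclear import receptor, at -1.94, GET3, which delivers tail-anchored proteins to the endoplasmic reticulum, at -1.75, TRIR at -1.17 and WDR83 at -1.14. On the telomeric side the median was -0.62 over 10 genes and -0.20 over the 7 that were not dim, and only ECSIT, a protein of mitochondrial complex I assembly, passed 2-fold, at -2.20. The members between these flanks had a median of -0.09, and of -0.20 without dim genes, and ZNF791, which adjoins the centromeric flank, differed by -0.20.

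Beside the 19p12 cluster the medians were -0.49 over the 10 telomeric neighbours and -0.20 over the 10 centromeric ones, with 1 gene past 2-fold on each side, YJEFN3 at -1.57 and PLEKHF1 at -1.11. Inside the cluster, 11 measured genes that are not zinc finger genes had a median of -0.37 and none past 2-fold. Of these 11, 9 were dim. Inside the 19p13.2 cluster there were 2 such genes, ZNF433-AS1 at -0.26 and LOC100289333 at -0.08. Another 4 ZNF genes inside the clusters were not in the list, ZNF442 at 0.45, ZNF788P at -0.25, ZNF826P at -0.07 and ZNF99 at -0.18, and all were dim. The medians of both flanks of each cluster and of the 11 genes kept their sign under each scaling, floor and probe set choice that was run. The 1099 genes of chromosome 19 that are not ZNF genes had a median of -0.15, with 3.91% past 2-fold upward and 9.01% downward.

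**Figure D3:**
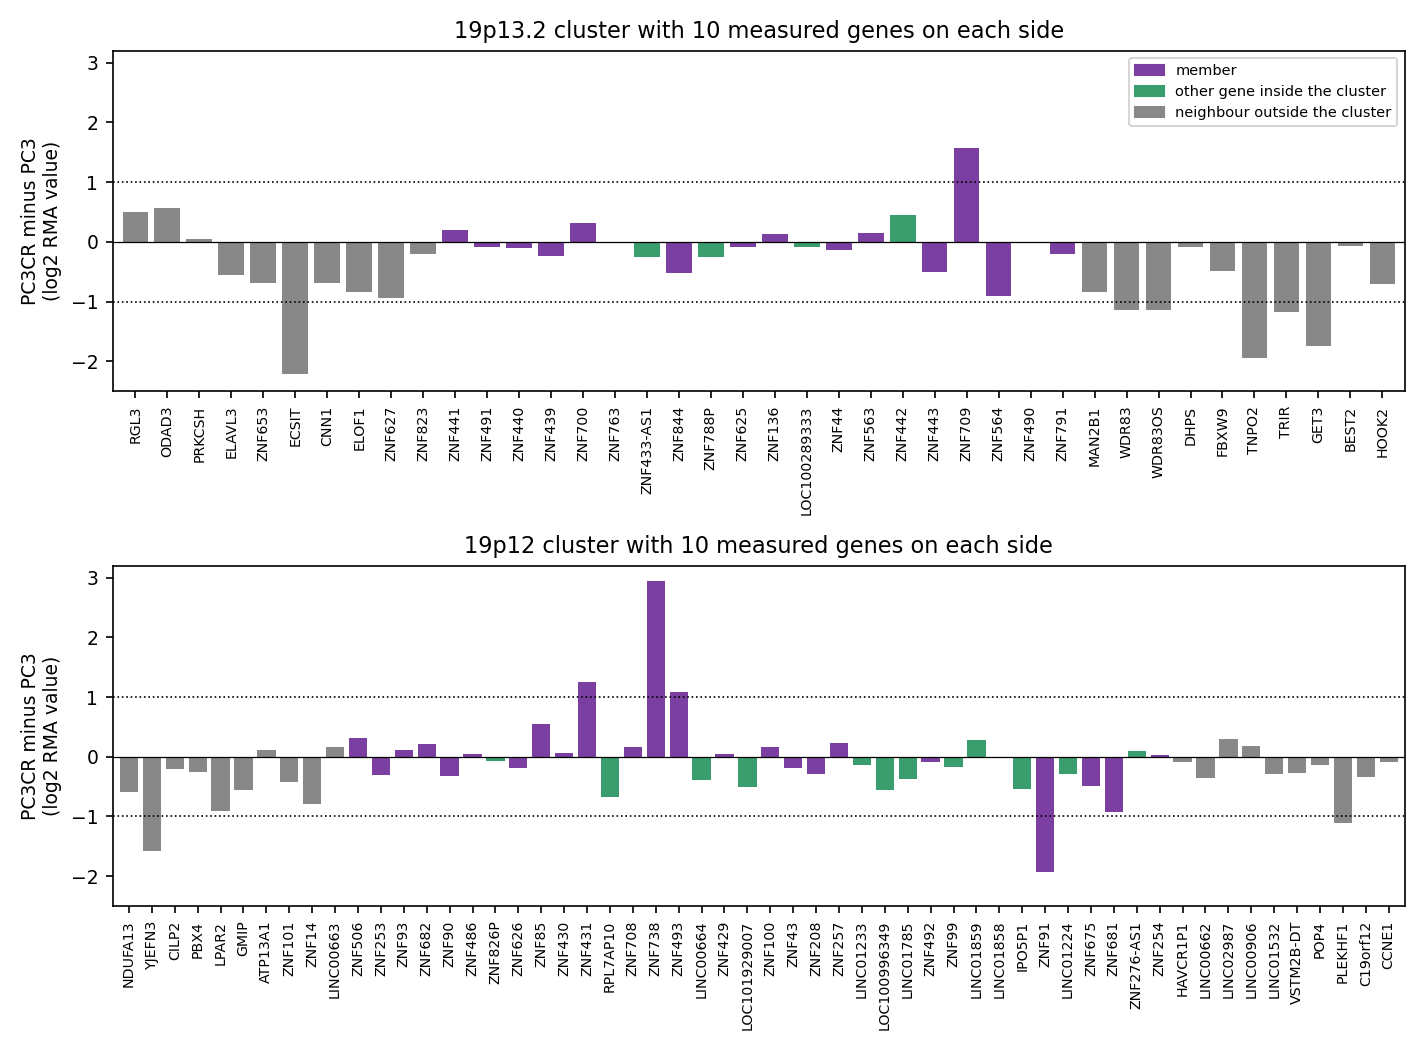
PC3CR minus PC3 in log2 RMA value (vertical axis) of the genes of each cluster in chromosome order with 10 measured genes on either side. Purple bars are members, green bars other genes inside the cluster, grey bars neighbours, and dotted lines mark 2-fold. Grey bars are mostly negative, whereas purple bars lie on both sides of 0.

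Other zinc finger genes had medians as close to 0 and extremes at least as far out, but a wider spread between the quartiles. The 182 other ZNF genes of chromosome 19 had a median of 0.00, with 22 past 2-fold upward (12.1%) and 12 downward (6.59%). The 247 ZNF genes of other chromosomes had a median of 0.01, with 27 past 2-fold upward (10.9%) and 26 downward (10.5%). The sign of each median changed with the scaling or the floor on signal. Their extremes, from larger groups, were ZNF573 at 2.92 and ZNF628 at -2.36 on chromosome 19 and ZNF140 at 2.29 and ZNF165 at -3.16 elsewhere. Among the 39 members, 4 were past 2-fold upward and 1 downward. The quartiles were -0.39 and 0.38 on chromosome 19 and -0.42 and 0.45 elsewhere, beside -0.21 and 0.18 for members. A larger share of the members was dim. Without dim genes the medians were -0.23 over 82 genes and -0.02 over 152 genes, beside -0.20 for 19p13.2 and 0.06 for 19p12.

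**Figure D4:**
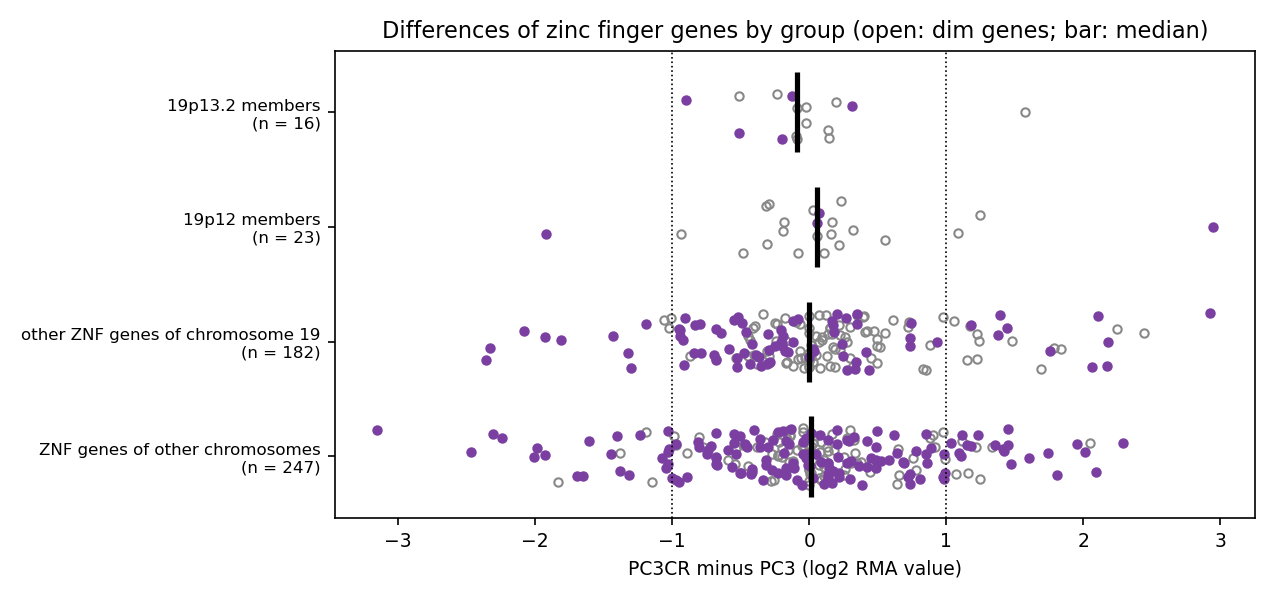
PC3CR minus PC3 in log2 RMA value (horizontal axis) for the 16 and 23 measured members and for 182 and 247 other ZNF genes, 1 point per gene. Open points are dim genes, filled points are not dim, vertical bars are medians and dotted lines mark 2-fold. The 4 medians lie close to 0, the other ZNF genes spread more widely, and ZNF738 is the point furthest right among members.

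A list of 31 genes linked to silencing by KRAB zinc finger proteins, called the corepressor list here, was also read. Transcripts of 30 of the 31 genes were above the dim limit, the exception being ZFP57, at 4.65 and 4.74. Not all of the list are corepressors, since ZFP57 and ZNF274 are KRAB zinc finger proteins themselves. TRIM28, the corepressor that binds the KRAB domain, had values of 8.63 (PC3) and 8.37 (PC3CR), differing by -0.26 on 1 probe set. SETDB1, the H3K9 methyltransferase that TRIM28 recruits, was at 7.07 and 7.63, a difference of 0.56, with its 2 probe sets at 0.11 and 0.56. Neither was past 2-fold, and they lay on opposite sides of 0.

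The corepressor list of 31 genes had a median of 0.23, and 6 genes passed 2-fold upward in PC3CR and 1 downward, leaving 24 inside that limit. These are 19.4% upward and 3.23% downward, beside 15.6% and 10.8% over all genes that were not dim. For comparison, the median was 0.09 over all genes that were not dim, and 30 of the 31 were not dim. The furthest from 0 were UHRF1, which directs maintenance DNA methylation, at 2.23, the chromatin remodeller HELLS at 1.70, CBX5, which encodes the heterochromatin protein HP1 alpha, at 1.52, and SUV39H2, an H3K9 methyltransferase, at 1.26. The other higher genes were TASOR, a subunit of the HUSH silencing complex, at 1.25 and MORC2, its partner ATPase, at 1.01. The lower one was ZNF274, a KRAB zinc finger protein that targets SETDB1 to zinc finger gene clusters, at -1.19. ZNF274 was at 8.76 in PC3 and 7.57 in PC3CR, and its second probe set was higher by 0.36. Probe sets of CBX5 ranged from -0.64 to 1.52, those of HELLS from 0.13 to 1.70, of TASOR from 0.16 to 1.25 and of MORC2 from 0.29 to 1.01. Both of SUV39H2 were past 2-fold, at 1.26 and 1.63, and UHRF1 had 1. As the mean of probe sets, 2 genes of the list passed 2-fold upward and none downward.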

How the data were processed

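Total RNA of PC3 and PC3CR cells was hybridised to Affymetrix arrays, 1 each. The values the authors deposited are on the log2 scale, for 54613 probe sets, from the robust multichip average, and their processing notes name Affymetrix Expression Console 1.4 and Transcriptome Analysis Console 3.1. RMA equalises the distributions of the arrays at the level of probes, so a change common to most genes would not show. The gene values used here still differed somewhat, with medians of 5.93 in PC3 and 6.05 in PC3CR and lower quartiles of 4.22 and 4.10. Human Gene 1.0 ST arrays are given in the methods, but the probe set names belong to U133 Plus 2.0. Precision is limited by having 1 array of each line.

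Gene names came from the annotation of the platform: 41091 probe sets carried a single symbol, 1801 with several symbols were left out, and 11721 were unnamed here. Symbols of 41037 were updated through Entrez IDs to RefSeq (GRCh38.p14), which also gave gene order and promoters. Neighbours were the 10 nearest measured genes. The lists and members were chosen with earlier results of these data known. Named were all members, TRIM28, SETDB1, the 4 genes of the corepressor list furthest from 0 and up to 4 genes of each comparison group. Genes of interest beyond that rule (TASOR, MORC2, ZNF274 and genes inside the clusters) were named after their values were seen. No p-value was computed. Promoters were aligned globally with Biopython 1.88 (match 1, mismatch -1, gap opening -3, extension -1). Alternatives were 3 floors on signal, 3 choices of probe set, 3 scalings and 1.5-fold and 3-fold thresholds. A median was taken as moved by 0.1 or more and a count by over 1.5 times. The summary was tested on simulated data. Computation used pandas 2.3.3 and numpy 2.4.6 in Python 3.11.15, the loess of statsmodels 0.14.6, and matplotlib 3.10.9 for plots.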

Additional observations from a re-analysis of the deposited data

How the results depend on the processing

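No paired analysis was possible because each cell line has 1 array. Of 27 recomputed medians and distances between medians, 23 moved by less than 0.1, and of 44 recomputed counts, 29 stayed within 1.5 times. The limit of 0.1 is larger than either main median, -0.09 and 0.05, so it does not show that their sign or size held. The 19p12 median of 0.01 after quantile normalization is among the 23, as is the changed sign of 19p13.2 after loess centring. Counts of 0 under both settings are among the 29. The 23 include the distance after median centring, which cannot move by construction. With the brighter array at or above the median, the 19p13.2 median was -0.20 and its distance to 19p12 -0.26, with 0 members of 19p13.2 and 1 of 19p12 at least 2-fold higher. With both arrays at or above the median, 0 members were past 2-fold in either direction, over 4 genes of 19p13.2 and 2 of 19p12. This floor left out every member past 2-fold, ZNF738 for its PC3 value and ZNF91 for its PC3CR value. The 0 thus follows from the floor and does not mean that their differences shrank. Without _s_at and _x_at probe sets the 19p12 median was 0.22 and the distance -0.31. With the mean of probe sets ZNF709 changed sign (-0.00899), so that 0 members of 19p13.2 were at least 2-fold higher, and 0 of 19p12 were at least 2-fold lower. Counting every probe set, 6 of 19p12 were higher and 1 of 19p13.2 lower. After loess centring or quantile normalization 1 gene of 19p13.2, ZNF564, was at least 2-fold lower, and the 19p13.2 median was 0.01 after loess centring. At 1.5-fold, 1 gene of 19p13.2 and 2 of 19p12 were lower, and at 3-fold 0 of 19p13.2 and 1 of 19p12 were higher. The causes were not tested beyond the construction of each alternative. Signal over background limits the 30 dim members, whose differences may be compressed.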
